A study of Mus musculus with 9 samples.

Results

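Growth factors and receptors that are known for their part in liver regeneration were followed through 9 mouse liver libraries. The set was given by name and held 10 genes: Hgf, Met, Egfr, Tgfa, Hbegf, Areg, Tgfb1, Tgfbr2, Ccnd1 and Osmr. It includes Ccnd1, which encodes a cyclin and no growth factor or receptor. Of the 10 genes, 9 were found among the 28956 rows of the count table, and all 9 were among the 17582 genes tested. Areg, the gene of the EGFR ligand amphiregulin, had no row under its own symbol. Its recorded synonym Mcub is also the symbol of another gene, so no value is given for Areg.

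All animals were C57BL6J mice of 8 weeks that received acetaminophen (APAP) at 300 mg/kg into the peritoneum, an overdose that kills hepatocytes around the central veins. APAP livers came from mice given no cells. APAP_MSC livers came from mice that also received 500000 cells labelled MSC by vein 90 min later, and APAP_HDF livers from mice that received the same number of cells labelled HDF on the same schedule. Livers were taken at 24 h, each group held 3 libraries, and no liver without APAP was included, so injury itself has no comparison here. The labels do not say that the 3 libraries of a group came from separate animals, so p-values measure the spread between these libraries, which may be technical. The abbreviations are not spelled out for the injected cells, nor is their species, and reads from injected cells cannot be told apart from host reads in these counts.

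The total count per library ran from 53267000 to 63176000, and 3 counts corresponded to 0.0453 to 0.0567 CPM, the count scaled by library size. Levels below are CPM after edgeR's TMM scaling, and differences are log2 fold changes ± SE with Benjamini-Hochberg adjusted p from edgeR's quasi-likelihood test over all 17582 genes. A gene was called at an adjusted p below 0.05. The labels name the cells as hepatocytes, but the RNA came from a piece of whole liver. The summed level of 7 hepatocyte markers was 88500 to 117000 CPM, and markers of stellate cells, sinusoidal endothelium, Kupffer cells and bile duct cells were present in every library. In such bulk tissue, fewer cells of a type and less RNA per cell cannot be told apart.

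In the regenerating liver, hepatocyte growth factor, made mainly by stellate and endothelial cells, acts on the receptor tyrosine kinase MET of hepatocytes. Ligands of the EGF family (TGF alpha, HB-EGF and amphiregulin) act on EGFR, and both receptors drive hepatocytes toward cyclin D1 and the cell cycle. Transforming growth factor beta 1 acts through the receptor encoded by Tgfbr2 to restrain hepatocyte division and to activate stellate cells. Oncostatin M, a cytokine of the IL-6 family, signals through OSMR and the shared subunit gp130.

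In APAP_MSC livers, 4 of the 9 genes fell against APAP livers: the growth factor genes Hgf, Tgfa and Hbegf and the receptor gene Tgfbr2. None of the 9 rose. Among all genes tested, 3.54% were called lower and 2.83% higher in this comparison. Hbegf fell by 2.01 on the log2 scale and Hgf fell by 1.15, whereas Met and Egfr, which encode receptors for these ligands, were not called. None of the 9 genes was called in APAP_HDF livers against APAP livers, where the background was 0.0% called higher and 0.0% called lower. Tgfa was called lower in APAP_MSC than in APAP_HDF livers, a comparison in which 3.99% of all genes were called lower and 4.9% higher.

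The promoters of the called genes with a RefSeq entry are shown because they give the reader the regulatory sequence just before the start of each gene that fell. RefSeq's promoter table (build GRCm38.p6) had an entry for 8 of the 10 genes, and Hbegf and Ccnd1 are named only. The build in the submitters' processing notes is GRCm39, and the count files hold no coordinates. Each sequence is the 250 bases before the annotated start, 5′ to 3′ on the gene's strand, with capitals for matches on either strand to the motifs searched. The intervals were chr5:16553245-16553494 on the plus strand for Hgf (the first of its listed starts), chr6:86194972-86195221 on the plus strand for Tgfa and chr9:116175364-116175613 on the minus strand for Tgfbr2.
Hgf: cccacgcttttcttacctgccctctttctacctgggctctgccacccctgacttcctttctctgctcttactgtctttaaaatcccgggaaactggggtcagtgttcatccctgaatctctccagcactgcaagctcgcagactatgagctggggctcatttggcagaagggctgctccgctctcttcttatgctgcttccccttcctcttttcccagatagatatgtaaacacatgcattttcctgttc
Tgfa: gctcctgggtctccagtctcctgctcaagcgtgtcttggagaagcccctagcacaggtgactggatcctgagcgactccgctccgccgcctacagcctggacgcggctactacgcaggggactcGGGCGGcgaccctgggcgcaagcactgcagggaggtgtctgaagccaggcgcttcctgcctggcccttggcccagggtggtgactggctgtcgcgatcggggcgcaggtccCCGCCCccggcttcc
Tgfbr2: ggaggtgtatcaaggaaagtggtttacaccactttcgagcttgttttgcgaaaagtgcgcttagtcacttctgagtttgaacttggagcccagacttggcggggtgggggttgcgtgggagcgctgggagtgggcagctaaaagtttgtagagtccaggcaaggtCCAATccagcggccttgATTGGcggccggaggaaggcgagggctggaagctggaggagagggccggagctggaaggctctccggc

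The motifs searched were the AP-1 element TGANTCA, the STAT element TTCNNNGAA, the GC box GGGCGG, the CCAAT box CCAAT and the TATA box TATAAA. Among 32851 promoter windows of the same length, 6.75% held the AP-1 letters, 7.02% the STAT letters, 32.7% the GC box, 33.8% the CCAAT box and 12.4% the TATA letters. The Hgf window, with a GC content of 50.8%, held none of the 5 motifs. The Tgfa window, with 69.2% GC, held 2 GC boxes that began 126 and 15 bases before the start. The Tgfbr2 window, with 58.4% GC, held 2 CCAAT boxes that began 85 and 68 bases before the start, on opposite strands. No motif was found in all 3 windows, and a match of letters is a description and not a binding site.

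Hgf, the ligand of MET, stood at 10.6, 9.37 and 5.61 CPM in the 3 APAP libraries. The APAP_MSC libraries had 4.10, 3.74 and 3.65 CPM, and the APAP_HDF libraries had 6.26, 6.94 and 3.17 CPM. All 3 APAP_MSC libraries lay below the lowest APAP library, while the APAP_HDF libraries spanned both. The group means were 8.53 ± 2.60 CPM in APAP, 3.83 ± 0.238 in APAP_MSC and 5.46 ± 2.01 in APAP_HDF (SD, n = 3). Against APAP, Hgf fell by 1.15 ± 0.30 in APAP_MSC (edgeR adjusted p = 0.0446), a level 2.22-fold lower. The call is close to the threshold. It was lost without APAP library 1 or 2, without APAP_HDF library 2 and without any of the APAP_MSC libraries, with adjusted p up to 0.169, and its log2 fold change ranged from -1.38 to -0.94 over the fits that left out 1 library. The APAP_HDF difference from APAP was -0.63 ± 0.29 (edgeR adjusted p = 0.568), and APAP_MSC differed from APAP_HDF by -0.52 ± 0.30 (edgeR adjusted p = 0.309). The Hgf order APAP, APAP_HDF, APAP_MSC therefore has neighbours that did not separate beyond their spread.

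Met, the receptor for hepatocyte growth factor, was at 105, 82.8 and 70.6 CPM in APAP livers. APAP_MSC livers had 59.7, 75.7 and 78.7 CPM, and APAP_HDF livers had 80.7, 71.8 and 72.5 CPM. The 3 groups overlapped. Met differed by -0.27 ± 0.15 between APAP_MSC and APAP (edgeR adjusted p = 0.313), by -0.20 between APAP_HDF and APAP (edgeR adjusted p = 0.713) and by -0.07 between APAP_MSC and APAP_HDF (edgeR adjusted p = 0.805).

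Tgfa encodes TGF alpha, a membrane-anchored EGFR ligand that hepatocytes themselves can make. It was at 44.9, 51.1 and 60.4 CPM in APAP livers, 37.9, 32.3 and 36.3 CPM in APAP_MSC livers and 52.6, 50.2 and 57.6 CPM in APAP_HDF livers. Every APAP_MSC library lay below all 6 others, and the APAP and APAP_HDF libraries overlapped. Tgfa fell by 0.55 ± 0.12 in APAP_MSC against APAP (edgeR adjusted p = 0.024, 1.47-fold lower) and by 0.59 ± 0.12 against APAP_HDF (edgeR adjusted p = 0.0143, 1.51-fold lower). The APAP_HDF livers differed from APAP livers by 0.04 ± 0.12 (edgeR adjusted p = 0.954). Tgfa was thus the gene of the 9 for which the difference between the cell-treated groups was itself called. Against APAP_HDF the call held in 8 of the 9 fits that left out a library and was lost without APAP_MSC library 2 (adjusted p = 0.0862). Against APAP it was lost without APAP library 2 or 3 and without any of the APAP_MSC libraries, with adjusted p up to 0.129.

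Hbegf encodes heparin-binding EGF-like growth factor, an immediate-early EGFR ligand, and had the lowest counts of the called genes. Its levels were 4.49, 2.89 and 7.21 CPM in APAP livers, 1.11, 0.944 and 1.59 CPM in APAP_MSC livers and 4.20, 2.93 and 1.34 CPM in APAP_HDF livers. The APAP_MSC libraries did not overlap the APAP libraries, and APAP_HDF library 3 lay within the APAP_MSC range. Hbegf fell by 2.01 ± 0.45 in APAP_MSC against APAP (edgeR adjusted p = 0.0299, 4.02-fold lower). Leaving out APAP library 1 or 3, or any of the APAP_MSC libraries, lost this call, with adjusted p up to 0.138 and a log2 fold change between -2.26 and -1.60. The other differences were -0.78 ± 0.40 for APAP_HDF against APAP (edgeR adjusted p = 0.61) and -1.22 ± 0.46 for APAP_MSC against APAP_HDF (edgeR adjusted p = 0.127).

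Egfr is the receptor for TGF alpha and HB-EGF. The APAP libraries were at 206, 375 and 503 CPM, the APAP_MSC libraries at 583, 333 and 491 CPM and the APAP_HDF libraries at 318, 353 and 385 CPM. Egfr was the only gene of the 9 with a positive difference between APAP_MSC and APAP, at 0.38 ± 0.30 (edgeR adjusted p = 0.51), and these groups overlapped. It differed by -0.04 between APAP_HDF and APAP (edgeR adjusted p = 0.983) and by 0.41 ± 0.30 between APAP_MSC and APAP_HDF (edgeR adjusted p = 0.425).

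**Figure D1:**
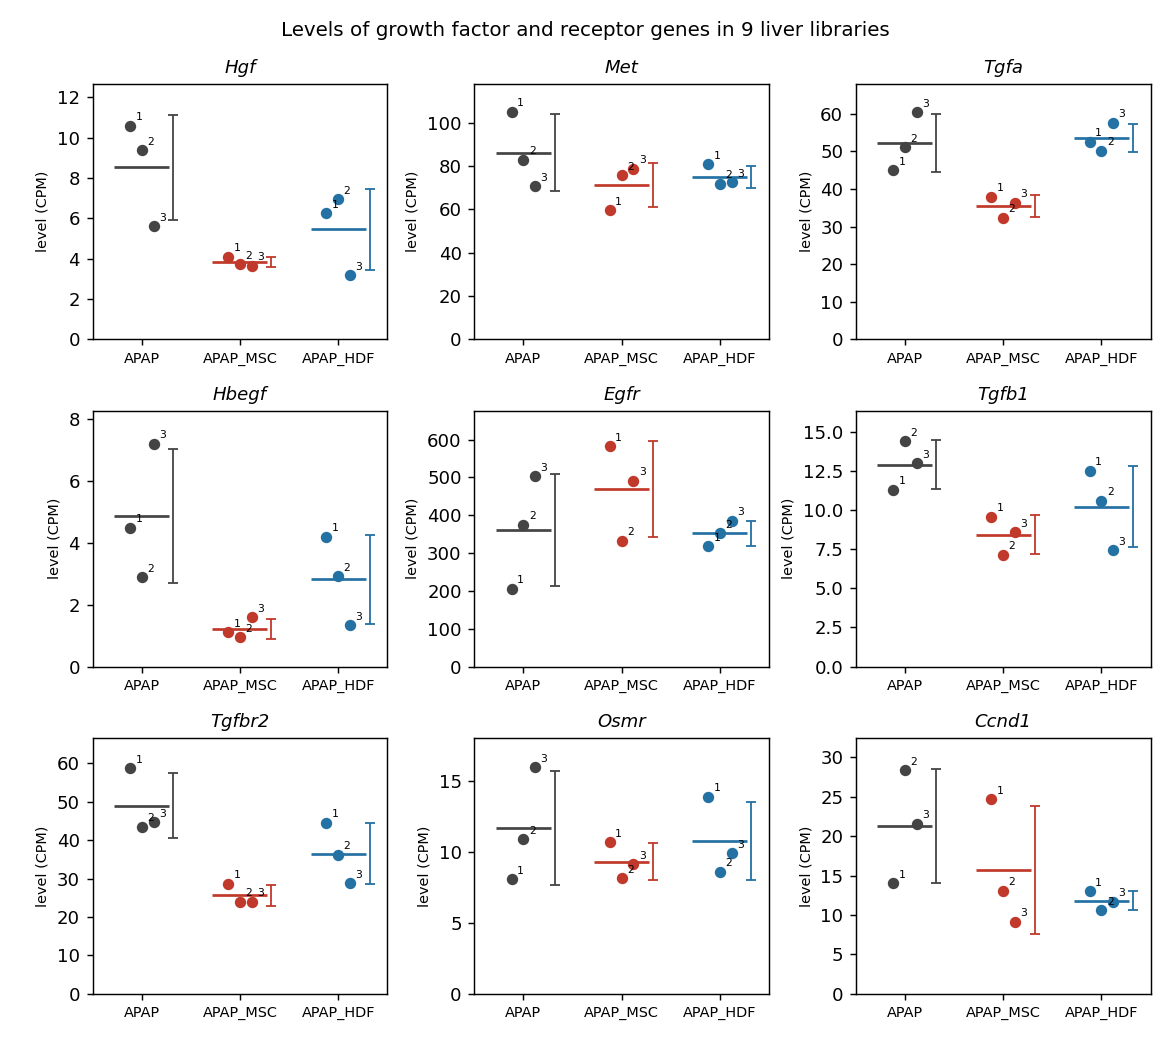
Level in CPM (linear axes from 0) of the 9 genes in each library of the APAP, APAP_MSC and APAP_HDF groups; points are libraries with their number, horizontal lines are group means and bars are ± SD (n = 3). The APAP_MSC points of Hgf, Tgfa, Hbegf, Tgfb1 and Tgfbr2 lie below every APAP point, and those of Tgfa and Tgfbr2 also lie below every APAP_HDF point.

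Tgfb1 encodes the ligand that limits hepatocyte proliferation. It stood at 11.3, 14.4 and 13.0 CPM in APAP livers, 9.56, 7.14 and 8.58 CPM in APAP_MSC livers and 12.5, 10.6 and 7.43 CPM in APAP_HDF livers. The APAP_MSC libraries were below all APAP libraries, but Tgfb1 missed the threshold at -0.61 ± 0.19 (edgeR adjusted p = 0.0806). It passed in a fit of only the APAP and APAP_MSC libraries (adjusted p = 0.0409), in DESeq2 (adjusted p = 0.0338), and without APAP_HDF library 1 (adjusted p = 0.046) or 3 (adjusted p = 0.0417). Tgfb1 differed by -0.34 between APAP_HDF and APAP (edgeR adjusted p = 0.632) and by -0.28 between APAP_MSC and APAP_HDF (edgeR adjusted p = 0.403).

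Tgfbr2, the ligand-binding receptor of this pathway, had the smallest adjusted p of the 9 genes in APAP_MSC against APAP. The levels were 58.8, 43.5 and 44.7 CPM in APAP livers, 28.7, 24.0 and 24.0 CPM in APAP_MSC livers and 44.6, 36.2 and 28.8 CPM in APAP_HDF livers. All APAP_MSC libraries lay below all others, though APAP_HDF library 3 was close to the highest of them. Tgfbr2 fell by 0.94 ± 0.17 against APAP (edgeR adjusted p = 0.0144, 1.91-fold lower), a call that 7 of the 9 fits with a library left out also made. The call was lost without APAP_MSC library 2 (adjusted p = 0.0884) or 3 (adjusted p = 0.0558). APAP_HDF livers lay between the other groups, at -0.42 ± 0.17 against APAP (edgeR adjusted p = 0.544), and APAP_MSC differed from APAP_HDF by -0.51 ± 0.17 (edgeR adjusted p = 0.0781). Neither step was called.

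Osmr, the receptor for oncostatin M, was at 8.08, 10.9 and 16.0 CPM in APAP livers, 10.7, 8.14 and 9.16 CPM in APAP_MSC livers and 13.9, 8.60 and 9.92 CPM in APAP_HDF livers. The groups overlapped. Osmr differed by -0.33 ± 0.25 between APAP_MSC and APAP (edgeR adjusted p = 0.485), by -0.11 between APAP_HDF and APAP (edgeR adjusted p = 0.923) and by -0.21 between APAP_MSC and APAP_HDF (edgeR adjusted p = 0.634). Its ligand gene Osm had too few reads to be tested, with 2, 2 and 10 counts in APAP, 0, 2 and 4 in APAP_MSC and 0, 4 and 0 in APAP_HDF livers.

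Ccnd1 encodes cyclin D1, the target through which growth factor signals reach the cell cycle. It was at 14.0, 28.4 and 21.6 CPM in APAP livers, 24.7, 13.1 and 9.16 CPM in APAP_MSC livers and 13.0, 10.6 and 11.7 CPM in APAP_HDF livers. The APAP_MSC libraries spanned nearly the whole range. The APAP_HDF libraries lay below all APAP libraries, at -0.86 ± 0.36, which the adjustment over all genes did not pass (edgeR adjusted p = 0.55). Ccnd1 differed by -0.44 ± 0.35 between APAP_MSC and APAP (edgeR adjusted p = 0.511) and by 0.41 ± 0.36 between APAP_MSC and APAP_HDF (edgeR adjusted p = 0.516).

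**Figure D2:**
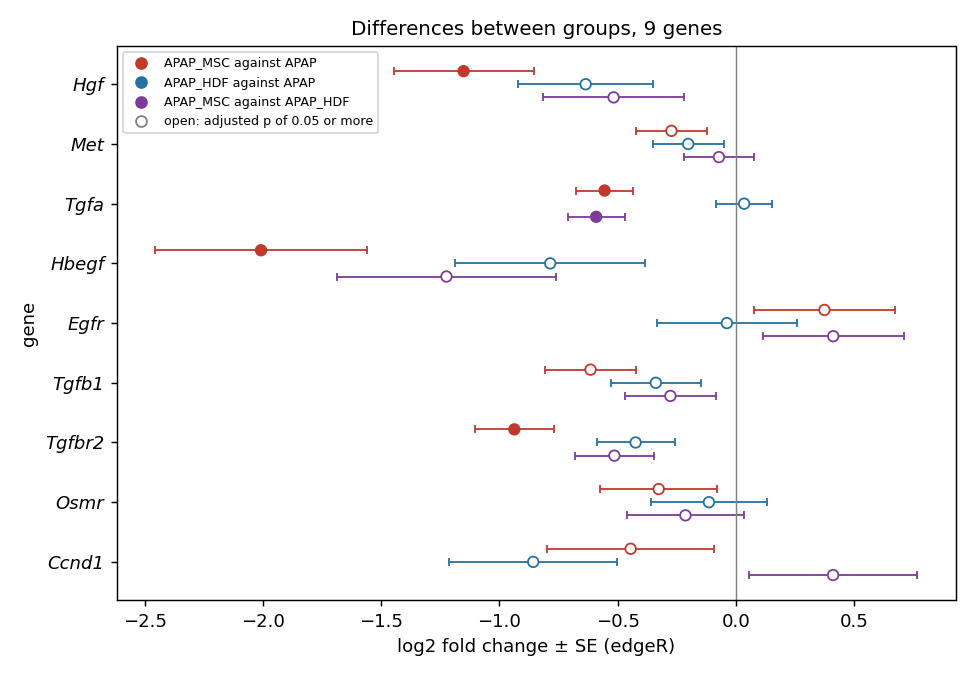
log2 fold change (horizontal axis, bars are ± SE from edgeR) of the 9 genes (vertical axis) in APAP_MSC against APAP (red), APAP_HDF against APAP (blue) and APAP_MSC against APAP_HDF (purple); filled points passed an adjusted p of 0.05. Hgf, Tgfa, Hbegf and Tgfbr2 are filled in red, Tgfa in purple and none in blue.

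Across the 9 genes, the median log2 difference was -0.56 in APAP_MSC against APAP, beside -0.01 over all 17582 genes. In 5 of the 9 every APAP_MSC library was below every APAP library, an order found in 14.7% of all genes. For APAP_HDF against APAP the median was -0.34 beside 0.00 over all genes, and 1 of the 9, Ccnd1, had all libraries lower, against 6.08% of all genes. For APAP_MSC against APAP_HDF the median was -0.28 beside -0.02, and 2 of the 9 had all libraries lower, against 16.4% of all genes. The first and the second comparison share the APAP libraries, and the first and the third share the APAP_MSC libraries. The genes also share the same 9 libraries, so they are not independent of each other.

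That no gene was called in APAP_HDF against APAP holds for edgeR at this number of libraries. Over all genes, 1544 had an unadjusted p below 0.05, the smallest adjusted p was 0.357, DESeq2 called 83 genes and limma-voom called 0. Tgfbr2, Ccnd1 and Hgf also had an unadjusted p below 0.05, with adjusted p of 0.544, 0.55 and 0.568 from edgeR. Their differences were all negative, and DESeq2 called none of the 9 in this comparison.

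Other genes of the same pathways were taken from 6 lists with 123 genes, of which 118 were tested. In APAP_MSC against APAP, 15 of the 118 fell and none rose, 88 of the 118 had a negative difference, and the median was -0.23. Over all genes, 3.54% were called lower and 2.83% higher, 8983 of 17582 had a negative difference and the median was -0.01. In APAP_HDF against APAP no pathway gene was called and the median was 0.00. The smallest adjusted p there was that of Itgb8, an integrin subunit that releases latent TGF beta (-1.39 ± 0.33, edgeR adjusted p = 0.444), which DESeq2 called. Next were the SMAD corepressor gene Tgif1 (0.58 ± 0.16, edgeR adjusted p = 0.493) and Nrg1, a ligand of ERBB3 and ERBB4 (0.91 ± 0.33, edgeR adjusted p = 0.542). In APAP_MSC against APAP_HDF 18 were called lower and 5 higher, with a median of -0.27, beside 3.99% lower, 4.9% higher and a median of -0.02 over all genes. Of the genes called lower, 9 were lower against both APAP and APAP_HDF livers: Cblb, Cdkn1a, Dusp4, Eng, Etv4, Fosl1, Itgav, Nrg4 and Smad7. Only Cblb and Smad7 of the 15 passed against APAP in every fit that left out 1 library.

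In the HGF and MET pathway, 1 of 17 genes fell in APAP_MSC against APAP and none rose, with a median of 0.20, a count near the 3.54% called lower over all genes. The gene that fell was Cd44, a hyaluronan receptor whose splice forms act as MET co-receptors (-1.30 ± 0.28, edgeR adjusted p = 0.0238, lost without any of the APAP_MSC libraries). Genes for proteins that process the HGF precursor gave mixed values. Hgfac, a serine protease that activates pro-HGF, had group means of 171 ± 7.87, 210 ± 19.6 and 163 ± 3.81 CPM in APAP, APAP_MSC and APAP_HDF livers (SD, n = 3). In APAP_MSC livers, Hgfac was not called against APAP (0.30 ± 0.10, edgeR adjusted p = 0.0949). Against APAP_HDF, Hgfac rose (0.36, edgeR adjusted p = 0.0442), together with St14, the protease matriptase (1.22, edgeR adjusted p = 0.0154), Spint1, an inhibitor of HGF activators (1.79, edgeR adjusted p = 0.0188), and Sdc1, a heparan sulfate proteoglycan (0.92, edgeR adjusted p = 0.0145). The Hgfac call held in 4 of the 9 fits that left out a library, with adjusted p up to 0.171. St14 and Spint1 were low, at most 2.20 and 1.89 CPM. In APAP_MSC against APAP_HDF, 4.9% of all genes were called higher and 3.99% lower. Of 7 bile duct cell markers tested, 6 also had a positive difference in this comparison, with 4 called higher, none lower and a median of 1.12. Among them were Krt19 (1.25, edgeR adjusted p = 0.0148) and Epcam (1.12, edgeR adjusted p = 0.0142). Sox9 went the other way (-0.63, edgeR adjusted p = 0.0611), with 35.3 CPM in APAP_MSC and 54.7 in APAP_HDF livers. Spp1, the highest of these 7 and also on the monocyte and macrophage list, was at 82.0 and 43.6 CPM. Summed bile duct cell markers were 118 to 134 CPM in APAP_MSC, 100 to 105 in APAP_HDF and 96.7 to 149 in APAP livers. The part of these markers in the rises was not tested. Plau, the urokinase protease, differed by -1.11 ± 0.32 between APAP_MSC and APAP (edgeR adjusted p = 0.0613).

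Among 19 tested genes of EGFR ligands, receptors and regulators, 3 fell in APAP_MSC against APAP and none rose, with a median of -0.16. Over all genes, 3.54% were called lower. Ereg, another EGFR ligand, fell by 1.80 ± 0.47 (edgeR adjusted p = 0.0448) from 1.44 ± 0.376 to 0.417 ± 0.121 CPM (SD, n = 3). Nrg4, a ligand of ERBB4, fell by 1.45 ± 0.27 (edgeR adjusted p = 0.0186). Its levels were 27.2, 15.8 and 19.8 CPM in APAP, 9.56, 5.68 and 7.70 CPM in APAP_MSC and 26.4, 14.3 and 19.5 CPM in APAP_HDF livers, so the APAP_MSC libraries lay apart from both other groups. Cblb, a ubiquitin ligase that down-regulates receptor tyrosine kinases, fell by 0.82 ± 0.12 (edgeR adjusted p = 0.0056), with 9.52 to 10.4 CPM in APAP_MSC against 16.0 to 18.3 CPM in APAP livers. The sister receptors were not called: Erbb2 differed by -0.22 (edgeR adjusted p = 0.718), Erbb3 by -0.06 (edgeR adjusted p = 0.906) and Erbb4 by 0.41 (edgeR adjusted p = 0.504). Against APAP_HDF, however, Erbb4 was called higher (1.33, edgeR adjusted p = 0.0433), at low means of 1.30 CPM in APAP_MSC and 0.524 in APAP_HDF livers. That call held in 4 of the 9 fits that left out a library. Erbb4 differed by -0.91 between APAP_HDF and APAP (edgeR adjusted p = 0.544). The ligand genes Egf at -0.24 (edgeR adjusted p = 0.745) and Btc at -0.73 (edgeR adjusted p = 0.387) were not called.

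Of 27 TGF beta pathway genes, 5 were called lower in APAP_MSC against APAP and none higher, beside 3.54% called lower over all genes. Against APAP_HDF, 9 were called lower and none higher, beside 3.99% called lower over all genes. The medians were -0.25 and -0.38. Smad7, the inhibitory SMAD that the pathway itself induces, had 24.3, 25.7 and 26.2 CPM in APAP and 25.4, 24.3 and 28.3 CPM in APAP_HDF livers. It had 12.6, 10.4 and 14.6 CPM in APAP_MSC livers, well apart from both, and fell by 1.02 ± 0.13 against APAP (edgeR adjusted p = 0.00353). Itgav, an integrin subunit that releases latent TGF beta, fell by 0.71 ± 0.14 (edgeR adjusted p = 0.0183). The co-receptor genes Eng (-0.71 ± 0.17, edgeR adjusted p = 0.0385) and Tgfbr3 (-0.71 ± 0.18, edgeR adjusted p = 0.0406) were called, as was Skil, a SMAD corepressor (-0.52 ± 0.13, edgeR adjusted p = 0.0426). Tgfbr1, which pairs with the product of Tgfbr2, was at 36.2 ± 5.48 CPM in APAP, 24.5 ± 2.35 in APAP_MSC and 36.4 ± 7.68 in APAP_HDF livers (SD, n = 3). It missed the threshold against APAP (-0.56 ± 0.16, edgeR adjusted p = 0.0557) and passed it against APAP_HDF (-0.58, edgeR adjusted p = 0.0445). The isoform genes Tgfb2 (0.30, edgeR adjusted p = 0.744) and Tgfb3 (-0.12, edgeR adjusted p = 0.911) were not called.

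None of 16 tested IL-6 family genes was called in APAP_MSC against APAP, with a median of -0.29. Over all genes, 3.54% were called lower and 2.83% higher, so no call among 16 genes is near that share. Il6st, the gp130 subunit that pairs with OSMR, differed by -0.39 ± 0.13 (edgeR adjusted p = 0.0919), Jak1, its kinase, by -0.38 ± 0.11 (edgeR adjusted p = 0.0584) and Il6ra by -0.76 ± 0.26 (edgeR adjusted p = 0.122). Lifr, the LIF receptor that can also pair with gp130, differed by 0.24 (edgeR adjusted p = 0.34). Jak1 was called lower in APAP_MSC than in APAP_HDF livers (-0.40, edgeR adjusted p = 0.0399). So was the ciliary neurotrophic factor receptor gene Cntfr (-1.01, edgeR adjusted p = 0.0429). These were 2 of the 16 genes, beside 3.99% called lower over all genes in that comparison. Il6 was among the genes with too few reads to be tested.

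Of 22 tested cyclin D and G1 checkpoint genes, 2 fell in APAP_MSC against APAP and none rose, with a median of -0.06. The share called lower over all genes was 3.54%. Cdkn1a, the p53 target that encodes the cell cycle inhibitor p21, had 91.0, 92.1 and 72.6 CPM in APAP, 42.9, 48.4 and 52.6 CPM in APAP_MSC and 98.7, 71.4 and 109 CPM in APAP_HDF livers. The APAP_MSC libraries lay below all others, and Cdkn1a fell by 0.83 ± 0.16 against APAP (edgeR adjusted p = 0.0173). Cdk6, a kinase partner of D cyclins, fell by 0.56 ± 0.12 (edgeR adjusted p = 0.0216). The other D cyclins were not called, with Ccnd2 at -0.54 (edgeR adjusted p = 0.291) and Ccnd3 at 0.10 (edgeR adjusted p = 0.7).

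Genes that are targets of the ERK cascade downstream of MET and EGFR, or that feed back on it, form the last list. Their median in APAP_MSC against APAP was the most negative of the 6 lists, -0.56. Of these 18 genes, 4 were called lower and none higher, beside 3.54% called lower over all genes. Against APAP, 17 of the 18 had a negative difference. Phlda1 went the other way without a call, with means of 59.5 CPM in APAP_MSC, 31.0 in APAP and 29.3 in APAP_HDF livers. Against APAP_HDF the median was -0.63, again with 4 lower and none higher, beside 3.99% called lower over all genes. APAP_HDF against APAP gave a median of 0.08 and no call. Dusp4, an ERK phosphatase, fell by 1.21 ± 0.22 against APAP (edgeR adjusted p = 0.0159), with 2.04 to 3.43 CPM in APAP_MSC, 5.60 to 7.63 CPM in APAP and 6.68 to 9.09 CPM in APAP_HDF livers. Its relative Dusp6 fell by 0.54 ± 0.14 (edgeR adjusted p = 0.0481). The transcription factor genes Etv4 (-1.61 ± 0.31, edgeR adjusted p = 0.0177) and Fosl1 (-1.69 ± 0.38, edgeR adjusted p = 0.027) also fell. Fosl1 was at 1.33 CPM in APAP library 1 and at 3.71 and 4.09 CPM in the other APAP libraries, against 0.774 to 1.11 CPM in APAP_MSC livers.

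**Figure D3:**
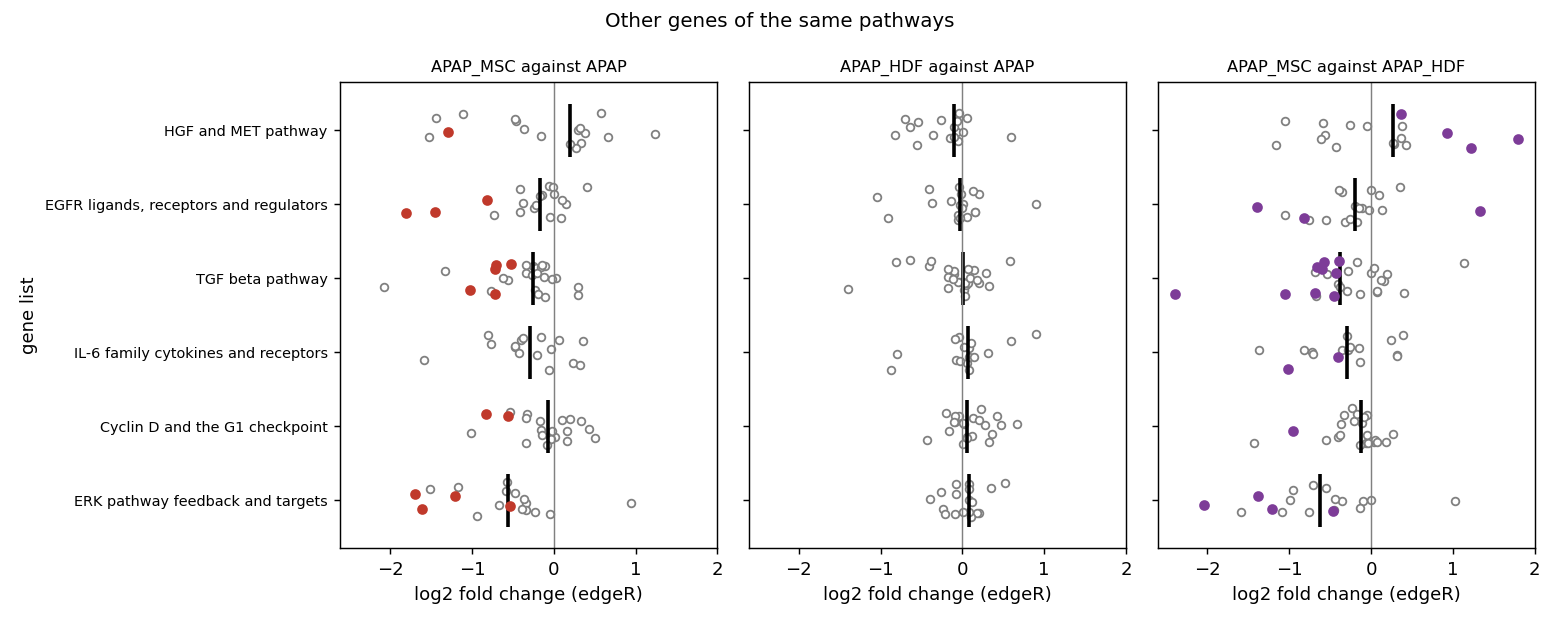
log2 fold change (horizontal axes, edgeR) of the other genes of 6 pathway lists (vertical axis, points spread at random within a list) in the 3 comparisons; filled points passed an adjusted p of 0.05 and black lines are list medians. The ERK list has the most negative median in both comparisons with APAP_MSC, and no point is filled for APAP_HDF against APAP.

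Some markers of cells that make or receive these factors moved beside these results. Over all genes, 3.54% were called lower in APAP_MSC against APAP. Of 10 markers of stellate cells, the main source of Hgf, 2 were called lower in this comparison. They were Dcn (-0.67 ± 0.14, edgeR adjusted p = 0.021) and Ecm1 (-0.74 ± 0.14, edgeR adjusted p = 0.0182). The other stellate markers were not called, Col1a1 (0.01) and Colec11 (0.04) had positive differences, and the median was -0.35. Dcn and Ecm1 also had the highest levels of the list. The summed stellate markers were 345 to 409 CPM in APAP, 258 to 289 in APAP_MSC and 242 to 334 in APAP_HDF livers. The sinusoidal endothelial sum was 199 to 303, 145 to 167 and 197 to 282 CPM, with 3 of 10 called lower. All 10 endothelial markers had a negative difference between APAP_MSC and APAP, with a median of -0.82. The monocyte and macrophage sum was 174 to 241, 141 to 160 and 135 to 170 CPM, with 4 of 9 lower. Its highest gene, Spp1, differed by 0.08 between APAP_MSC and APAP (edgeR adjusted p = 0.866), at 82.0 and 77.4 CPM. The Kupffer cell sum overlapped between groups, at 158 to 382, 245 to 373 and 170 to 223 CPM, with 1 of 8 called lower. Of these 8 markers, 7 had a negative difference between APAP_MSC and APAP, with a median of -0.61. C6, the highest marker of this list in APAP_MSC livers, went the other way (1.16, edgeR adjusted p = 0.126). It was at 165 CPM in APAP_MSC and 73.9 CPM in APAP livers. The neutrophil sum was 9.46 to 12.3, 2.96 to 4.56 and 3.48 to 10.8 CPM, with 3 of 6 tested lower. None of 7 hepatocyte markers was called in either comparison with APAP, and 1, Cps1, was called higher in APAP_MSC than in APAP_HDF (0.73, edgeR adjusted p = 0.0213). No marker on any list was at 0 in all libraries, though Ly6g and Mpo had at most 3 counts in each. The part of these shifts in the differences of Hgf, Hbegf and Tgfbr2 was not tested.

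The genes with the most similar log2 CPM profile over the 9 libraries were found for each member by Pearson correlation. They were sought among 9844 genes with a mean of at least 5 CPM. These r values are a description, rest on the same 9 libraries and also take in the differences between groups. Hgf was most like Pxdn (r = 0.985), Zeb2 (r = 0.954) and the stellate marker Dcn (r = 0.952). Tgfbr2 was most like Cd151 (r = 0.985), Tpm1 (r = 0.978) and Gm3608 (r = 0.964). Tgfa was most like Ptpn9 (r = 0.991), Cers6 (r = 0.971) and Tmem189 (r = 0.967), and Hbegf was similar to B4galt6 (r = 0.979) and Fhl3 (r = 0.959). Many genes had an r above 0.9: 43 with Hgf, 90 with Tgfbr2, 149 with Tgfa and 42 with Hbegf. With the group means removed, r with Hgf was 0.976 for Pxdn, 0.891 for Zeb2 and 0.889 for Dcn. In the same way, r with Tgfa was 0.955 for Ptpn9, 0.891 for Cers6 and 0.825 for Tmem189. For the genes that were not called, the nearest were Psd3 for Met (r = 0.968), Arfip2 for Egfr (r = 0.971) with Igf1 next (r = 0.938), Slco3a1 for Tgfb1 (r = 0.969), Cdk7 for Ccnd1 (r = 0.935) and Sh3gl1 for Osmr (r = 0.979).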

How the data were processed

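RNA was measured in 9 whole-liver libraries, 3 per group. Per the submitters' processing notes, reads were handled with HISAT2, Subread and DESeq2 on mm39 (GRCm39), with versions and strand use not given in the sources used here. The authors deposited raw counts per gene and a second table, a signal in which each count was divided by 1 factor per library. Only the counts were tested. They were analysed in R 4.3.3 with edgeR 4.0.16 (filterByExpr, TMM scaling, quasi-likelihood test over all 9 libraries). The genes kept held 99.966% of counts, and 24 symbol entries were repeats. edgeR's newer dispersion option was settled on after both options had been seen, and the older one is an alternative. limma 3.58.1 (voom) and DESeq2 1.42.0 were other alternatives, beside other scalings, filters and leaving out each library. The fitting code was tested on simulated data. The columns carry no replicate number, so library numbers are names only. The common biological coefficient of variation was 0.197.

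The members and the pathway and marker lists were chosen with earlier results of these data known. Named pathway genes were, for each list and comparison, the called ones up to the 6 with the smallest p, or the 2 with the smallest p where none was called, plus direct partners of the members; for the comparison without calls only the leading ones are printed. Promoter sequences are RefSeq's. A few single-gene values that the rules would name are not reported here.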

Additional observations from a re-analysis of the deposited data

Results flagged for a closer look

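Several genes differed between APAP_MSC and APAP_HDF livers, so that the same comparison with APAP would not give them the same value for both kinds of injected cells. Tgfa differed by -0.59 (edgeR adjusted p = 0.0143).

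In the TGF beta pathway the differences were -1.05 for Smad7, -0.66 for Itgav, -0.68 for Eng, -0.58 for Tgfbr1, -0.60 for Tgif1, -0.45 for Smad4 and -0.43 for Smurf2. Not all of these were falls from APAP. Tgif1 differed from APAP by -0.02 in APAP_MSC and 0.58 in APAP_HDF, and Smad4 by -0.16 and 0.29, none of them called. Smad7, by contrast, differed from APAP by -1.02 in APAP_MSC and 0.03 in APAP_HDF. In the EGFR list they were -0.82 for Cblb, -1.39 for Nrg4 and 1.33 for Erbb4. In the HGF list they were 1.22 for St14, 0.92 for Sdc1, 1.79 for Spint1 and 0.36 for Hgfac. In the ERK list they were -1.38 for Dusp4, -1.21 for Etv4, -2.04 for Fosl1 and -0.47 for Spred2. Jak1 differed by -0.40, Cntfr by -1.01 and Cdkn1a by -0.96. All of these passed an edgeR adjusted p of 0.05 over all genes, the highest being 0.049 for Spred2, and of the 23 pathway genes called in this comparison, only Dusp4, Cblb, Cdkn1a and Smad7 passed in every fit that left out 1 library.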

How the results depend on the processing

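No value called for a member or pathway gene changed sign under any alternative run. In APAP_MSC against APAP, 2 of the 9 genes were called with no filter on low counts and 2 with limma-voom (Tgfa and Tgfbr2 in both), against 4. DESeq2 called 2 in APAP_MSC against APAP_HDF (Tgfa and Hbegf), 31, 1 and 38 pathway genes and 2050, 83 and 2531 genes in all in APAP_MSC against APAP, APAP_HDF against APAP and APAP_MSC against APAP_HDF. limma-voom called 9 pathway genes in the first.

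Leaving out 1 library gave, in the same order, 0 to 5, 0 to 0 and 0 to 3 of the 9 genes, 2 to 25, 0 to 0 and 5 to 30 pathway genes, and 97 to 1753, 0 to 32 and 361 to 1793 genes in all. No member was called against APAP without APAP_MSC library 2 or 3, and 1 without library 1 (Tgfbr2). The cause was not tested.

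Scaling by library totals alone moved the median of all genes to -0.12 in APAP_MSC against APAP and -0.14 against APAP_HDF, and the calls to 347 higher and 835 lower (main 498 and 623) and to 596 and 1147 (main 862 and 701). It left the same members called. The older edgeR option, an alternative added after seeing the data, called 4, 0 and 1 of the 9 genes. No paired analysis was possible because the columns carry no replicate number.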
